A study of Macaca mulatta with 31 samples.

Results

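Single blastocysts of the rhesus macaque were compared between 2 maternal diets, and only the blastocysts that the labels class as non-fragmented were taken. They were chosen by that label alone and number 16 of the 31 blastocysts in all, 8 after a standard chow diet (SCD) and 8 after a Western-style diet (WSD). The study followed regularly cycling females aged 5 to 6 years, which ate SCD from weaning, gave oocytes after a first ovarian stimulation (COS #1), ate a high-fat WSD for 6 to 8 months and gave oocytes again (COS #2). Oocytes were fertilized in vitro and grown in culture to the blastocyst stage, and whole blastocysts without zona were sequenced singly from amplified polyadenylated RNA. Non-fragmented blastocysts came from embryos without cellular fragments, and the other 15 (6 SCD and 9 WSD) from embryos with them. The comparison asks how transcripts differ between the diets in blastocysts without fragments.

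Each SCD blastocyst dates from COS #1 and each WSD blastocyst from COS #2, so diet, order of stimulation and the females' age at retrieval cannot be told apart. The labels do not say which female gave which blastocyst. The study drew on fewer females than blastocysts in each diet, so some blastocysts share a mother, and the p-values measure the spread between blastocysts and not between females. Total counts ran from 11997445 (SCD 14) to 25466146 (SCD 8) in the SCD group and from 10037852 (WSD 10) to 20228624 (WSD 11) in the WSD group.

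A blastocyst is an outer layer of trophectoderm, which later forms the placenta, around a fluid-filled cavity and an inner cell mass. The inner cell mass sorts into epiblast, the source of the embryo proper, and primitive endoderm, which lays down a basement membrane rich in laminin and collagen IV. Bone morphogenetic proteins (BMPs) and fibroblast growth factors signal between these layers, and mitochondria inherited from the oocyte supply much of the energy.

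Fewer genes were detected in the libraries of the WSD group. With 1 count or more as detection, SCD blastocysts had 17211, 19750 and 21158 detected genes (lowest, median, highest) and WSD blastocysts 14428, 16722 and 19142. The ranges overlapped, but 5 of 8 WSD blastocysts lay below all SCD blastocysts and 8 of 8 lay below the SCD median. The means were 19504 ± 1590 (SD, n = 8) and 16616 ± 1627 (SD, n = 8), a difference of -2889 genes (exact permutation test, two-sided, p = 0.00435, adjusted p = 0.0174 over 8 library measures, Benjamini-Hochberg). SCD 13 and SCD 14 had the fewest detected genes of the SCD group (17211 and 17501), and WSD 11 the most of the WSD group (19142). Most of the difference in means lay in low-count genes left out of the gene test below, at -2657, against -232 in the genes tested. Genes with 10 counts or more, also counted in the libraries as deposited, differed by -902.2 (exact permutation p = 0.0106, adjusted p = 0.0283).

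The difference was also found at equal depth. After random thinning of every library to 10037852 counts, the means were 18238 ± 1089 and 16032 ± 1274 genes (SD, n = 8 each), a difference of -2206 (exact permutation p = 0.00326, adjusted p = 0.0174). At equal depth, genes that RefSeq names and calls protein-coding averaged 13266 in SCD and 12333 in WSD blastocysts (exact permutation p = 0.00404), and genes with no symbol 3666.5 and 2686.6 (exact permutation p = 0.00404).

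Gene by gene at equal depth, 29029 genes were detected in at least 1 of the 16 blastocysts and 10665 in all 16. Detection in more SCD than WSD blastocysts was found for 11898 genes and the reverse for 3688. A gap of 4 blastocysts or more was found for 1199 genes toward SCD and 66 toward WSD. At the extreme, 44 genes were detected in 7 or more SCD and at most 1 WSD blastocyst, and 2 in the reverse pattern. Among the former, chosen after their values were seen, were CATSPER4, a sperm calcium channel subunit (8 SCD and 0 WSD blastocysts), ZP1, a glycoprotein of the oocyte's zona pellucida (7 and 0), ALK, a receptor tyrosine kinase (8 and 1), and the integrin ITGA4 (7 and 1). TCHH, a structural protein of hair follicles, was detected in 1 SCD and 7 WSD blastocysts. All of these were near the limit of detection: ZP1 reached 18 counts at most in an SCD blastocyst and TCHH 21 in a WSD blastocyst.

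Other measures of the libraries did not differ at an adjusted p under 0.05. The log10 total count differed by -0.08266 (exact permutation p = 0.12, adjusted p = 0.197), and the 20 most abundant genes took 8.51% of counts in SCD and 7.89% in WSD blastocysts (exact permutation p = 0.123, adjusted p = 0.197). The number of genes that hold the upper 50% of counts was 809 and 807 (exact permutation p = 0.966).

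In a principal component analysis of the 500 most variable genes, PC1 held 51.8% of the variance and PC2 8.54%. PC1 scores averaged -13.69 ± 18 in SCD and 13.69 ± 16.37 in WSD blastocysts (SD, n = 8 each), a difference of 27.38 (exact permutation p = 0.00808). Of the WSD group, 6 of 8 scored above all SCD blastocysts, with WSD 16 highest at 37.51. The exceptions were WSD 9 (-9.796) and WSD 17 (-8.909), while SCD 13 (11.04) and SCD 14 (9.661) were the SCD blastocysts with positive scores. Blastocysts of the same diet correlated at a median Spearman rho of 0.919 over genes and those of different diets at 0.907. Genes are not independent replicates in these correlations.

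**Figure D1:**
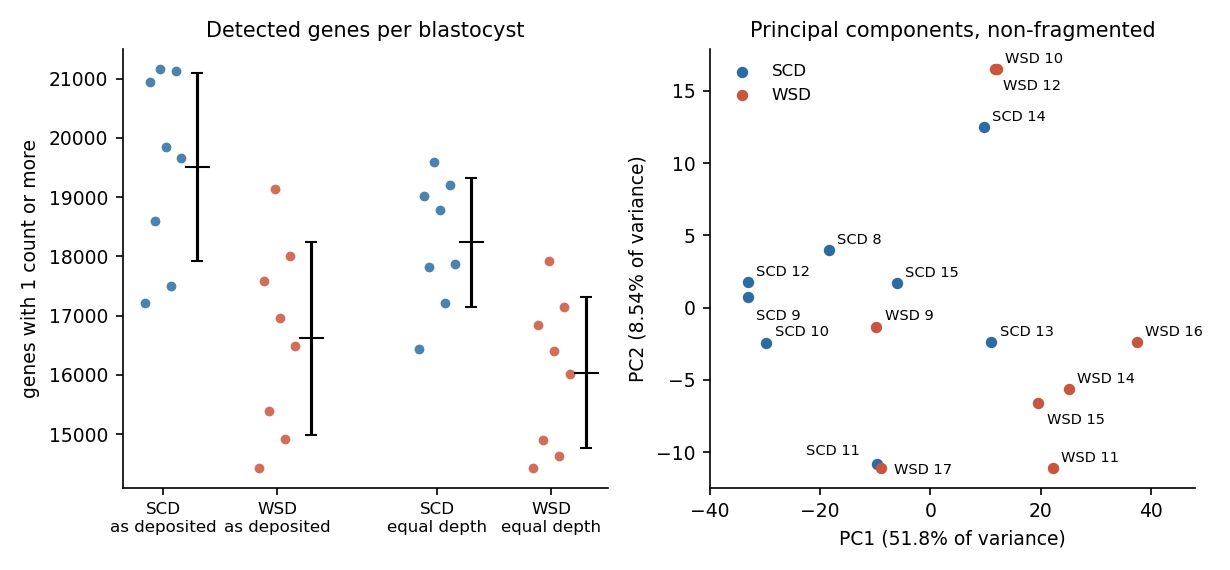
Left, genes with 1 count or more in each blastocyst, as deposited and thinned to equal depth, with the mean and SD of each diet (n = 8). Right, scores on PC1 and PC2 of each blastocyst, with 6 of 8 WSD blastocysts at higher PC1 than all SCD blastocysts.

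No single gene passed the test after adjustment. Over 12387 genes, edgeR (quasi-likelihood F, adjusted by Benjamini-Hochberg) called 0 genes at an adjusted p under 0.05 (0% of genes tested), and the smallest adjusted p was 0.123. At an unadjusted p under 0.05 there were 2171 genes (17.5%), of which 1043 were higher in WSD (8.42%) and 1128 lower (9.11%). These shares are the background for every count of list members that follows. The lists were chosen with earlier results of these data known, so no count of their members is independent evidence. Below, "higher" or "lower" refers to an unadjusted edgeR p under 0.05 unless a value is given instead. DESeq2 on the same genes called 206 (100 higher and 106 lower in WSD), of which 204 were among the 2171. edgeR's newer quasi-likelihood form called 49, and the older form used here is an assumption, since the study does not name the form. Without the filter edgeR called 9.

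The genes called changed when single blastocysts were left out, and the genes that passed the filter changed with them. Without WSD 9, edgeR called 14 genes, among them DUSP1, LAMA3, BMP2, FOXA2 and the basement membrane nidogens NID1 and NID2. Without WSD 17 it called 6 (DUSP1, LAMA3, KIAA1217, PSAP, SALL2 and ZNF750), without SCD 13 it called 2 (ELMOD1 and TLR7), and without WSD 11 it called 1 (SSTR5). Leaving out any other of the 16 gave 0. TLR7 did not pass the filter with all 16 blastocysts and was not tested there. In these fits FOXA2, TLR7, SSTR5 and ZNF750 passed the filter through their SCD values, and no conclusion is drawn from their calls.

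The median log2 fold change over all tested genes, WSD against SCD, was -0.00544. Of the 1043 higher genes 304 differed over 2-fold and 48 over 4-fold, and of the 1128 lower genes 574 and 154. The tested genes were divided by mean level into 3 classes of equal size. The class of lowest level held 211 higher and 343 lower genes, the middle class 346 and 467, and the class of highest level 486 and 318. Lower genes thus outnumbered higher ones at low and middle level, and the reverse was found at high level.

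Of 12 listed trophectoderm markers 9 were in the table of names and all 9 were tested: 6 were lower, 0 higher, and the median log2 fold change was -0.95 against -0.00544 over all genes. The study itself names HAND1 from these blastocysts, and of the other 8 genes 5 were lower. Summed over the list, the markers reached 5200, 11900 and 15500 CPM (counts over the library total, scaled by TMM; lowest, median, highest) in SCD and 2290, 6210 and 11200 in WSD blastocysts, with the keratin KRT18 the most abundant gene. None of the 9 genes was at 0 in all 16 blastocysts. Leaving out 1 blastocyst gave from 4 lower (without SCD 12) to 8 lower (without SCD 13 or without WSD 12). A covariate for library size left 3 of the 9 lower, as did a fit of only the blastocysts without Y-linked transcripts. With detected genes as a covariate 0 were lower (median -0.34).

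CDX2, the homeobox factor that sets up trophectoderm, had 109, 228 and 362 CPM in SCD and 33.8, 79.7 and 254 CPM in WSD blastocysts. The fitted log2 fold change was -1.18 (SE 0.373, edgeR adjusted p = 0.205). Below all SCD blastocysts lay 6 of 8 WSD blastocysts, and only WSD 12 and WSD 17 reached the SCD range. GATA2, a zinc-finger factor of trophoblast, had 179, 797 and 1230 CPM against 20, 165 and 855 CPM, a log2 fold change of -1.46 (SE 0.589, edgeR adjusted p = 0.239). The keratin KRT19, part of the epithelial skeleton, had 69.5, 1220 and 2110 CPM against 11, 236 and 1070 CPM, a log2 fold change of -1.66 (SE 0.78, edgeR adjusted p = 0.28). In both genes SCD 13 was the lowest SCD blastocyst and WSD 17 the highest WSD blastocyst, so the ranges overlapped widely. TFAP2C, an AP-2 factor of early trophectoderm, differed less, with 433, 552 and 694 CPM against 293, 420 and 499 CPM and a log2 fold change of -0.47 (SE 0.165, edgeR adjusted p = 0.212).

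DAB2, an endocytic adaptor, and HAND1, a helix-loop-helix factor of trophoblast and mesoderm, were also lower, at log2 fold changes of -0.95 (SE 0.339) and -2.87 (SE 1.08). HAND1 spread most, from 4.65 to 981 CPM in SCD and from 0.269 to 171 CPM in WSD blastocysts. In bulk RNA of a whole blastocyst, fewer cells of a type and less RNA per cell cannot be told apart.

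Of 10 listed epiblast markers 8 were in the table and tested, 0 were higher or lower, and the median log2 fold change was 0.15. Leaving out 1 blastocyst moved the median between -0.04 (without WSD 12, with 1 gene lower) and 0.28 (without SCD 11). It was near 0 without SCD 13 and without WSD 9, and without SCD 8 there was 1 gene higher. POU5F1, the pluripotency factor also called OCT4, had 302, 476 and 987 CPM in SCD and 263, 673 and 1430 CPM in WSD blastocysts, a log2 fold change of 0.36 (SE 0.31). NANOG, another pluripotency factor, had 40.5, 80.1 and 147 CPM against 15.4, 81.4 and 110 CPM. The WSD ranges enclosed or overlapped most of the SCD values in both genes, with WSD 16 highest and WSD 17 lowest in POU5F1.

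Of 9 listed primitive endoderm markers 8 were tested, 3 were lower and 0 higher, with a median log2 fold change of -1.36. The 3 lower genes are COL4A1, COL4A2 and FOXA2, which the study named from these same blastocysts, so their count is not independent evidence, and 0 of the other 5 were higher or lower. With library size as a covariate 0 of the 8 were lower (median -0.57), and without WSD 9 there were 5 (median -2.23). COL4A1, a collagen IV chain of basement membrane, had 5.94, 87.3 and 297 CPM in SCD and 0.19, 7.33 and 50.4 CPM in WSD blastocysts (log2 fold change -2.94, SE 0.932, edgeR adjusted p = 0.205). COL4A2, the partner chain whose gene lies next to it on chromosome 17 (Mmul_10, 91748923 to 91949867, plus strand), had 20.7, 280 and 598 CPM against 6.19, 22.8 and 179 CPM (log2 fold change -2.40, SE 0.746). For both chains WSD 9 was the highest WSD blastocyst, and SCD 13 and SCD 14 lay far below the rest of their group. With library size as a covariate the fitted log2 fold changes were -1.44 for COL4A1 and -1.17 for COL4A2.

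FOXA2, a forkhead factor of endoderm, was at 0 in 4 of 8 WSD blastocysts and under 1 CPM in 7 of 8. The exception was WSD 9 at 11.6 CPM, while the SCD group had 0, 11.7 and 20.5 CPM. The fitted log2 fold change was -2.64 with all 16 blastocysts and -6.11 without WSD 9. In the fit without WSD 9 no WSD blastocyst exceeded 0.584 CPM, and FOXA2 passed the filter through its SCD values. No conclusion is drawn from its call there. GATA6, which starts the primitive endoderm program, had 294, 387 and 648 CPM against 236, 342 and 518 CPM (log2 fold change -0.26, SE 0.203). The apolipoprotein APOA1, the most abundant gene of the list, had 32.6, 934 and 2560 CPM against 78, 456 and 1130 CPM. The summed list was lowest among SCD blastocysts in SCD 13, SCD 14 and SCD 15 (680, 749 and 857 CPM), inside the WSD range of 564 to 2110 CPM.

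Markers of other cells that could cling to an embryo were low for sperm and blood, but not for all cumulus and granulosa genes. Of 10 cumulus and granulosa cell genes 3 were tested, 0 were higher or lower, and the median log2 fold change was 0.23. Single blastocysts decided this count: without SCD 14 there were 2 higher (median 0.58), without WSD 9 or without WSD 11 there was 1 higher, and without WSD 10 there was 1 lower. AREG, FSHR, FOXL2, AMH and INHBA were under 1 CPM in all 16 blastocysts, and CYP11A1, a steroid-making enzyme of mitochondria, was the most abundant. CYP11A1 reached 419 CPM (SCD 14) and HSD17B1 411 CPM (SCD 8). The summed cumulus and granulosa list had 204, 338 and 618 CPM in SCD and 234, 350 and 660 CPM in WSD blastocysts. The 5 sperm genes, PRM1 and PRM2 at 0 among them, summed to 0.574 CPM or less, and the blood genes to 1.24 CPM or less, and none of these was tested.

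Ligands, receptors and targets of BMP signalling, listed with mesoderm genes, were lower in the WSD group in 7 of 12 tested genes and higher in 0, with a median log2 fold change of -0.98. The study named 6 of the 12 from these blastocysts, so the count is not independent evidence, and of the other 6 genes 1 was lower, at a median of -0.60. Under a covariate for library size 3 of the 12 were lower. BMP2, a ligand, had 0.491, 11.6 and 71.7 CPM in SCD and 0.0633, 0.167 and 17.4 CPM in WSD blastocysts. The fitted log2 fold change was -3.42 (SE 1.21, edgeR adjusted p = 0.211), with 6 of 8 WSD blastocysts below all SCD blastocysts and WSD 9 alone above the SCD median. With library size as a covariate the log2 fold change was -1.86. Without WSD 9 it was -6.10, and BMP2 was among the 14 genes called. In that fit WSD 12, at 1.9 CPM, was the only WSD blastocyst above 1 CPM, and no conclusion is drawn from the call. BMP4, a related ligand, lay the other way in value, with 1.29, 2.54 and 8.7 CPM against 2.65, 5.03 and 13.8 CPM (log2 fold change 0.76, SE 0.484).

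The receptors BMPR2 and BMPR1A, which pass the BMP signal to SMAD proteins, had log2 fold changes of -1.05 (SE 0.319) and -0.83 (SE 0.354). BMPR2 had 25.6, 68.9 and 107 CPM in SCD and 10.2, 34.8 and 61.9 CPM in WSD blastocysts. FGFR1, a receptor for fibroblast growth factors, had 71, 241 and 387 CPM against 28.1, 88.8 and 211 CPM (log2 fold change -1.32, SE 0.365, edgeR adjusted p = 0.197). The highest WSD blastocyst was again WSD 9, and 5 SCD blastocysts lay above it. ID2, a target of BMP signalling that blocks helix-loop-helix factors, had 2.29, 15.7 and 169 CPM against 0.57, 3.72 and 16 CPM (log2 fold change -2.87, SE 0.823, edgeR adjusted p = 0.202). DESeq2 called ID2, FGFR1 and HAND1 of this list. TRIM71, an RNA-binding ubiquitin ligase of early embryos, had a log2 fold change of -0.95 (SE 0.293).

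Focal adhesions join the actin skeleton to the matrix outside the cell. Of 9 genes tested 6 were lower and 0 higher, with a median log2 fold change of -0.94. Of these 9 the study named 5 from these blastocysts, COL4A1 and COL4A2 stand in the primitive endoderm list too, and of the other 4 genes 2 were lower. With library size as a covariate 0 of the 9 were lower (median -0.71). ACTN1, an actin crosslinker, had 1010, 2540 and 3370 CPM in SCD and 271, 1110 and 2320 CPM in WSD blastocysts (log2 fold change -0.94, SE 0.329, edgeR adjusted p = 0.211). All 8 WSD blastocysts lay below the SCD median. The adaptors VCL and TLN1, which tie integrins to actin, had log2 fold changes of -0.91 (SE 0.35) and -0.94 (SE 0.334).

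Of 7 tested genes of the cavity and the cell junctions 1 was higher and 2 were lower, with a median log2 fold change of -0.25. These counts were 0 and 1 with Y-linked transcripts as a covariate, in the blastocysts without such transcripts, in 1 fit of all 31 blastocysts, and without any 1 of SCD 9, SCD 10, SCD 12, SCD 15, WSD 10, WSD 11, WSD 14 and WSD 16. They were 1 and 1 in DESeq2, with RLE scaling, with the number in the title as a replicate block, and without any 1 of SCD 13, WSD 9 and WSD 12, and 1 and 3 without the block on its 12 blastocysts. Both were 0 under a covariate for library size and under one for detected genes. AQP3, a water channel, had 20.2, 61.5 and 98 CPM in SCD and 51.3, 105 and 164 CPM in WSD blastocysts (log2 fold change 0.78, SE 0.358). The ranges overlapped, with SCD 14 the highest SCD blastocyst and WSD 11 the highest of all.

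Genes of mitochondrial translation and import were higher in the WSD group in 13 of 15 tested genes and lower in 0, with a median log2 fold change of 0.59. The study chose all 15 on fragmented and non-fragmented blastocysts together, so this count is not independent evidence. The carrier SLC25A2, which the study names with them, was missing from the list used here. It had a log2 fold change of 1.36 (SE 0.543, edgeR adjusted p = 0.234), with WSD 16 highest at 55.3 CPM, and of 0.42 (SE 0.373) without WSD 16. MRPL45, a protein of the large mitochondrial ribosome subunit, had 81.4, 120 and 200 CPM in SCD and 156, 189 and 366 CPM in WSD blastocysts (log2 fold change 0.73, SE 0.215, edgeR adjusted p = 0.205). All WSD blastocysts lay above the SCD median, and WSD 16 was highest. PTCD3, which binds the small mitochondrial ribosome subunit, had 188, 329 and 366 CPM against 359, 399 and 503 CPM, with 7 of 8 WSD blastocysts above all SCD blastocysts (log2 fold change 0.38, SE 0.157). TOMM20, a receptor of protein import on the outer membrane, had 90.7, 157 and 204 CPM against 160, 204 and 253 CPM (log2 fold change 0.45, SE 0.179). With library size as a covariate 7 of the 15 were higher, with Y-linked transcripts as a covariate 4, in the blastocysts without Y-linked transcripts alone 0 (median 0.41), and without WSD 16 there were 8.

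Of 9 tested fatty acid and lipid genes 2 were higher and 1 was lower, with a median log2 fold change of 0.19. Without WSD 9 the counts were 2 and 3, without SCD 14 they were 2 and 2, and with library size as a covariate 1 and 0. The median has no stable sign, at -0.22 without WSD 14 and -0.27 in DESeq2. PLIN2, which coats lipid droplets, had 147, 225 and 381 CPM in SCD and 235, 382 and 480 CPM in WSD blastocysts (log2 fold change 0.61, SE 0.221). All 8 WSD values were above the SCD median. FASN, which builds fatty acids, had 38.6, 205 and 329 CPM against 31.5, 85.2 and 233 CPM (log2 fold change -1.08, SE 0.379). The other higher gene, ACSM4, a medium-chain acyl-CoA synthetase that the study also names, had 0.0392, 0.497 and 5.68 CPM against 0.467, 4.77 and 18.6 CPM.

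Of 9 tested stress and apoptosis genes 2 were higher and 1 was lower, with a median log2 fold change of 0.18. The counts were 2 and 0 without SCD 13, 2 and 0 without WSD 16 (median -0.07), 3 and 1 without SCD 14, and 0 and 2 with detected genes as a covariate. HSPA5, a chaperone of the endoplasmic reticulum, had 1720, 2240 and 3490 CPM in SCD and 2090, 3440 and 5990 CPM in WSD blastocysts (log2 fold change 0.68, SE 0.213, edgeR adjusted p = 0.205). The SCD median was exceeded by all WSD blastocysts but WSD 17, and the ranges overlapped.

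**Figure D2:**
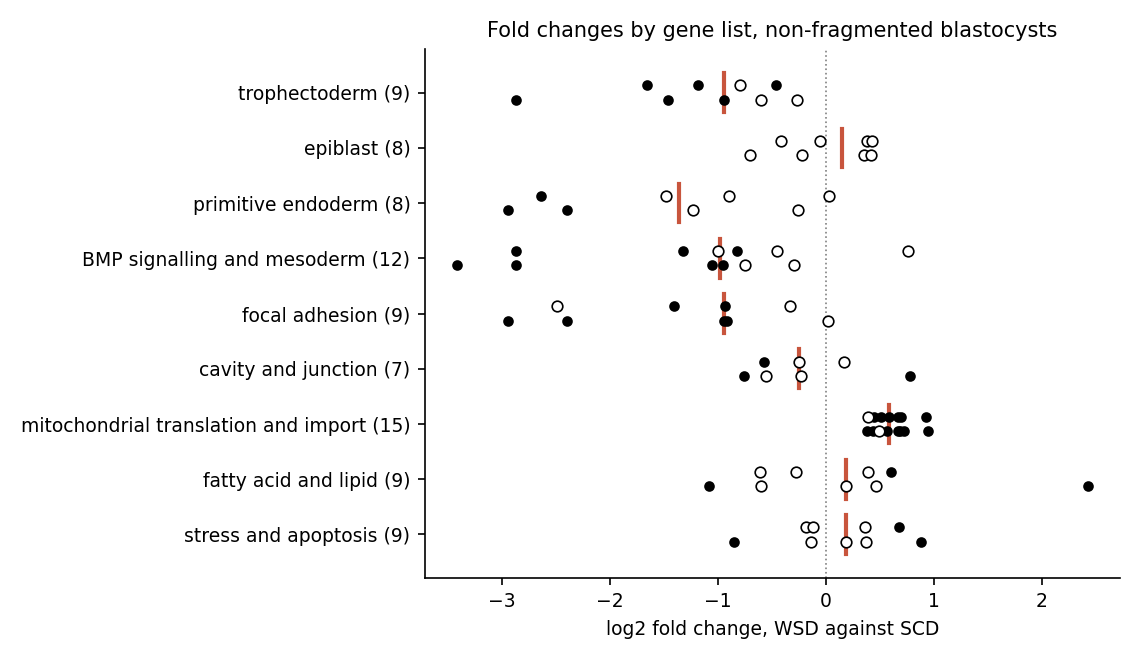
Fitted log2 fold change, WSD against SCD, of each tested gene in 9 lists, with the number of tested genes in brackets. Filled points have an unadjusted p under 0.05, open points do not, and the bar is the list's median, lowest for primitive endoderm at -1.36 and highest for mitochondrial translation and import at 0.59.

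The last list holds the genes that the study gives as its largest differences, and since it was chosen on these samples it is not independent evidence. Of 10 listed genes 9 were in the table of names and 5 passed the filter, 3 higher and 2 lower. The median of so few genes of both signs, 2.43, turned to -2.74 over the 9 genes with no filter, and it also turned without each of the 8 WSD blastocysts and without SCD 13. Without WSD 9 the filter passed 8 of them, 4 higher and 4 lower. NOTO, a homeobox factor of the notochord, had 0.274, 0.751 and 7.63 CPM in SCD and 1.43, 12 and 42 CPM in WSD blastocysts, with 6 of 8 WSD blastocysts above all SCD blastocysts (log2 fold change 2.82, SE 0.807, edgeR adjusted p = 0.202). SCD 13 and SCD 14 were the highest SCD blastocysts, at 7.63 and 7.44 CPM. KLRG2, a lectin-like receptor, rested on few blastocysts, with WSD 14 and WSD 16 at 32.7 and 41.5 CPM and the median of the WSD group at 2.11.

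SSTR5, a somatostatin receptor (Mmul_10 chromosome 20, 1068990 to 1085033, plus strand), had 16.5, 23.9 and 49.5 CPM in SCD blastocysts. It was under 1 CPM in 7 of 8 WSD blastocysts and at 0 in 5 of them, but WSD 11 had 20.5 CPM, inside the SCD range. The log2 fold change was -3.53 (SE 1.2, edgeR adjusted p = 0.21). Without WSD 11 the log2 fold change was -9.74, and SSTR5 was the 1 gene called. In that fit no WSD blastocyst exceeded 0.119 CPM, and SSTR5 passed the filter only through its SCD values. No conclusion is drawn from this call. ZNF750, a zinc-finger factor of epithelial differentiation, had 0.491, 4 and 27.5 CPM against 0, 0.0316 and 7.88 CPM, with WSD 17 at 7.88 and every other WSD blastocyst below 1 CPM. Its log2 fold change was -2.74 with all 16 blastocysts. Without WSD 17 it was -6.38, and ZNF750 was among the 6 genes called. In that fit no WSD blastocyst exceeded 0.431 CPM, and ZNF750 passed the filter only through its SCD values. No conclusion is drawn from that call either.

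The genes of smallest p were chosen after their values were seen, 10 in each direction among those with a symbol of their own, and none passed adjustment in edgeR, while DESeq2 called all 20. DUSP1, a phosphatase that switches off MAP kinases (chromosome 6, 170168726 to 170171764, minus strand), had 92.3, 142 and 180 CPM in SCD and 137, 481 and 661 CPM in WSD blastocysts. The log2 fold change was 1.69 (SE 0.287, edgeR adjusted p = 0.123). All SCD blastocysts were exceeded by 7 of 8 WSD blastocysts, and WSD 17, the exception, was the lowest of its group at 137 CPM. MIC1 had 37.2, 50.1 and 107 CPM against 103, 137 and 225 CPM (log2 fold change 1.32, SE 0.245, edgeR adjusted p = 0.154). NACC2, a BTB-domain repressor, had 9.48, 15.3 and 21.2 CPM against 18.8, 35.6 and 81.2 CPM (log2 fold change 1.56, SE 0.303, edgeR adjusted p = 0.163). Both showed almost no overlap between the diets. The other higher genes were C15orf48, RHEX, ELMOD1, ALDH3A1, HOMER2, NARS2 and OIP5, at log2 fold changes from 0.69 (NARS2) to 3.54 (C15orf48).

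Among the lower genes, LAMA3, a laminin chain of epithelial basement membrane (chromosome 18, 58451919 to 58724159, minus strand), had 10.9, 25.5 and 70.2 CPM in SCD and 3.11, 4.33 and 15.8 CPM in WSD blastocysts. The log2 fold change was -2.37 (SE 0.448, edgeR adjusted p = 0.154). Below all SCD blastocysts lay 7 of 8 WSD blastocysts, and WSD 17 was the exception. HAS2, which makes hyaluronan, had 0.803, 1.84 and 16.3 CPM against 0, 0.374 and 0.81 CPM. MTARC2, a molybdenum enzyme of mitochondria, was at 340, 449 and 395 CPM in SCD 13, SCD 14 and SCD 15 and at 22.3 CPM or less in every other SCD and every WSD blastocyst, so its log2 fold change of -4.48 rests on those 3. AHNAK, a very large scaffold protein, had 219, 604 and 868 CPM against 145, 283 and 342 CPM. Also lower were KIAA1217, PNP, VPS16, TRAPPC9 and PCP4L1.

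The values of the diets did not overlap at all in 3 of the 12387 genes (0.0242%), also singled out after their values were seen. NARS2, the mitochondrial asparaginyl-tRNA synthetase (chromosome 14, 71516046 to 71653494, minus strand), had 88.8, 113 and 146 CPM in SCD and 150, 182 and 230 CPM in WSD blastocysts (log2 fold change 0.69, SE 0.163, edgeR adjusted p = 0.194). SDC3, a heparan sulfate proteoglycan of the cell surface, had 2.22, 3.85 and 11 CPM against 0, 0.982 and 1.94 CPM (log2 fold change -2.47, SE 0.642, edgeR adjusted p = 0.196). KCTD11, an adaptor of a ubiquitin ligase, had 6.25, 8.57 and 19.4 CPM against 2.16, 5.07 and 6.08 CPM (log2 fold change -1.09, SE 0.326, edgeR adjusted p = 0.205).

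**Figure D3:**
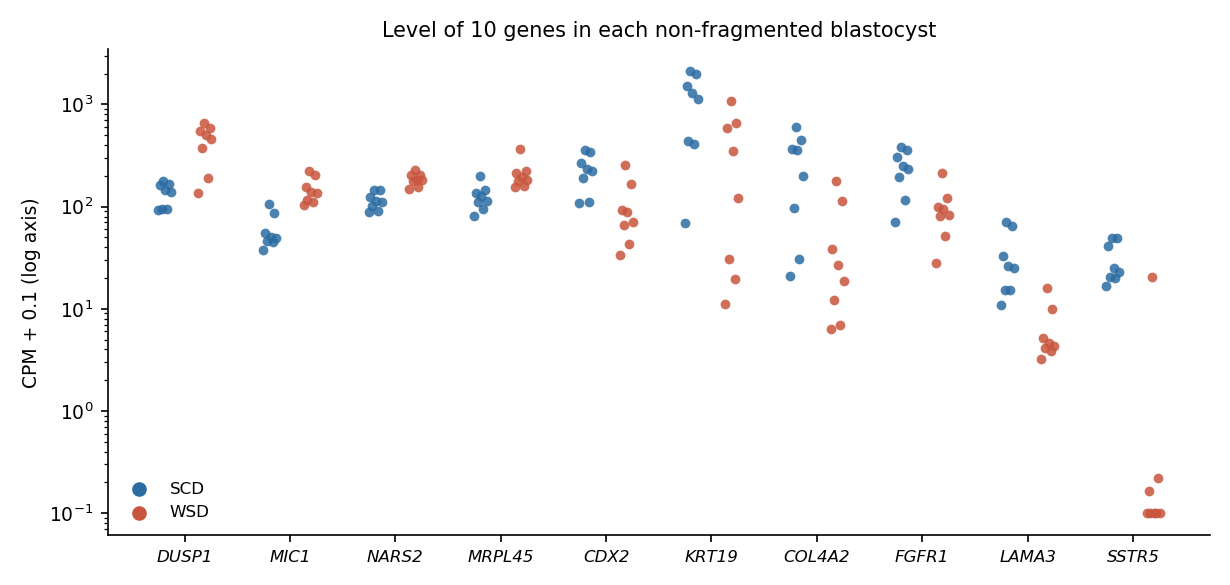
Level of 10 genes in each of the 8 SCD and 8 WSD blastocysts, as TMM-scaled CPM plus 0.1 on a log axis. NARS2 does not overlap between the diets, and in SSTR5 WSD 11 alone of the WSD group lies with the SCD blastocysts.

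The number of detected genes moved with many of these genes. With that number at equal depth as a covariate, edgeR called 0 genes, 356 had an unadjusted p under 0.05, and 0 of the trophectoderm, primitive endoderm, mitochondrial, BMP and focal adhesion genes were higher or lower. The fitted log2 fold change then changed sign in 33 of 90 list members tested, and the list medians turned to 0.28 for primitive endoderm, 0.08 for focal adhesion, 0.02 for BMP and mesoderm, -0.27 for epiblast, -0.19 for stress and apoptosis and -0.34 for cumulus and granulosa cells. Among named genes it was 0.56 for HAND1, 0.63 for BMP2, 0.20 for BMPR1A, 0.37 for COL4A1, 0.08 for COL4A2, 0.40 for FOXA2, 0.34 for APOA1, 1.10 for ZNF750, -0.43 for POU5F1 and -0.02 for MRPL46. None of the 20 genes of smallest p turned. Detected genes differ by diet, so this covariate takes diet with it, and its part in the gene differences was not tested apart from diet.

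Transcripts of 7 Y-linked genes, looked at after the other data were seen, summed to 366 CPM or more in 1 SCD blastocyst (SCD 11) and 4 WSD blastocysts (WSD 11, WSD 15, WSD 16 and WSD 17), and to 2.08 CPM or less in the other 11. The summed level averaged 46.6 CPM in SCD and 308.3 CPM in WSD blastocysts, a difference of 261.8 CPM (exact permutation p = 0.0359). With the presence of Y-linked transcripts as a covariate, edgeR called 0 genes and 1327 had an unadjusted p under 0.05. In the blastocysts without Y-linked transcripts alone, 7 SCD and 4 WSD, detected genes differed by -3555 (exact permutation p = 0.0152). There edgeR called 1 gene, SSTR5, at a log2 fold change of -9.12. Since WSD 11 is not among these blastocysts, SSTR5 passed the filter only through its SCD values, and no conclusion is drawn from this call.

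Fragmented blastocysts share no sample with the comparison above. Among 13951 genes tested in 6 SCD and 9 WSD fragmented blastocysts, edgeR called 0 (0%, smallest adjusted p 0.57), and DESeq2 called 23. At an unadjusted p under 0.05 there were 1159 genes (8.31%), 541 higher in WSD (3.88%) and 618 lower (4.43%). The term for a diet difference between the classes, fitted on all 31 blastocysts, called 0 of 15285 genes (0%, smallest adjusted p 0.999), with 501 at an unadjusted p under 0.05 (3.28%), and DESeq2 called 1. No gene is therefore shown by edgeR to differ in its diet effect between fragmented and non-fragmented blastocysts.

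Side by side, the median log2 fold change in fragmented blastocysts was -0.64 for trophectoderm, -0.13 for primitive endoderm, -0.69 for BMP and mesoderm, -0.70 for focal adhesion and 0.45 for mitochondrial genes. In these, 1 of the 9 trophectoderm genes was lower, 0 of the primitive endoderm genes were higher or lower, 5 BMP and mesoderm genes were lower and 1 higher, 1 focal adhesion gene was lower and 9 mitochondrial genes were higher. The study named its genes from fragmented and non-fragmented blastocysts together, so these counts are not independent evidence either. No member of any of these lists had an unadjusted p under 0.05 for the difference between the classes. Of the 10 higher genes of smallest p, 8 were also higher in fragmented blastocysts, and of the 10 lower genes 1 was lower. For PNP, HAS2, KIAA1217 and AHNAK the difference between the classes had an unadjusted edgeR p under 0.05 and an adjusted p of 0.999. Over all genes tested for it, 3.28% had such an unadjusted p. The genes of smallest p were chosen on the non-fragmented blastocysts, which favours a difference between the classes. Their counts and p-values here are therefore not independent evidence.

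Detected genes in fragmented blastocysts averaged 20811 ± 2856 (SD, n = 6) in SCD and 18827 ± 1182 (SD, n = 9) in WSD, a difference of -1984 (exact permutation p = 0.0679). The difference in non-fragmented blastocysts was larger by -905.3 genes, which did not pass (exact permutation p = 0.559, fragmentation labels permuted within each diet). At equal depth the value was -229.6 (exact permutation p = 0.888). SCD 3, a fragmented blastocyst with 25762 detected genes, weighs on this. Without it the value was -1896 (exact permutation p = 0.128), and -1380 at equal depth (exact permutation p = 0.131).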

How the data were processed

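The deposited table holds raw read counts per Ensembl gene for 31 single blastocysts, made by the authors with bcl2fastq, FastQC 0.11.8, Trimmomatic 0.39 and the gene counts of STAR 2.7.0 on Mmul_10. STAR counts only reads aligned to 1 place, so near-identical gene copies are undercounted. The strand column kept is not given in the sources used here, so antisense overlap is not told apart. The 2 blastocysts that the authors removed are not analysed here, 0 columns were unmatched, and a check for duplicate libraries over all 465 pairs gave a lowest chi-square per degree of freedom of 44.8, where counting error alone gives about 1.

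The 16 non-fragmented blastocysts were grouped by diet from the labels. Genes were filtered by filterByExpr, leaving 12387 of 30287 with a count, scaled by TMM and tested in edgeR 4.0.16, the study's tool (QLF test, R 4.3.3; the legacy form is assumed from the time of the study, which does not name it), with Benjamini-Hochberg adjustment at 0.05. The PCA used DESeq2 1.42.0. Single values per blastocyst were compared by two-sided exact permutation over 12870 divisions (Python 3.11.15, numpy 2.4.6, scipy 1.17.1, pandas 2.3.3). Symbols paired with 24173 of 35395 identifiers, which held 97.5% of counts in the 16, and coordinates are those of RefSeq on Mmul_10. Depth ran from 10037852 to 25466146 counts per blastocyst.

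Genes named are the largest called changes, those the study names and members of the lists. Since edgeR called none, the 10 genes of smallest p in each direction take the place of the called ones, a choice made after the values were seen. Members and lists were chosen with earlier results of these data known. Alternatives were DESeq2's Wald test, RLE scaling, other filters, edgeR's newer and robust forms, covariates, a replicate block, other detection thresholds, equal depth, other PCA inputs, all 31 blastocysts in 1 fit and leaving out each blastocyst. The fits on Y-linked transcripts, and equal depth without SCD 3, were chosen after seeing the data. Some genes that the rule names are not reported here. The tests were checked on simulated data.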

Additional observations from a re-analysis of the deposited data

Results flagged for a closer look

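In 3 of 56 groups of blastocysts examined, 1 blastocyst lay far from the others of its diet relative to the whole range, where chance gives about 1 group in 20. The 20 most abundant genes took 10.9% of counts in SCD 8, and 8.8% in the next SCD blastocyst. TRAPPC9 had a log2 CPM of 2.72 in WSD 16, and 3.5 in the next above it. KIAA1217 had a log2 CPM of 4.4 in SCD 14, and 5.91 in the next above it. The cause of each was not tested.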

How the results depend on the processing

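Against 0 genes called by edgeR in non-fragmented blastocysts, DESeq2 called 206, no filter gave 9, the newer quasi-likelihood form 49, the blastocysts without Y-linked transcripts alone 1 (chosen after seeing the data), and an unadjusted p under 0.05 gave 2171. Leaving out each blastocyst gave from 0 to 14, with 14 without WSD 9, 6 without WSD 17, 2 without SCD 13 and 1 without WSD 11. RLE scaling, a filter at 1 CPM, the robust form, the covariates of library size, detected genes and Y-linked transcripts, and 1 fit of all 31 blastocysts gave 0. In fragmented blastocysts DESeq2 called 23 and the newer form 1, and for the diet difference between classes DESeq2 called 1. The cause was not tested.

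The number in the title was used as a replicate block on the 12 blastocysts whose number occurs in both diets. The block gave 189 genes and no block on the same 12 gave 0. Detected genes then differed by -3126 (exact sign-flip permutation p = 0.0625 over 6 pairs). Same-numbered blastocysts correlated from -0.0511 to 0.293, 3 of 6 above 0.1. Differently numbered blastocysts were not correlated for reference, so these values cannot tell whether the numbers mark pairs. The log2 fold changes with and without the block were 0.08812 and 0.03129 for NANOG and 0.08613 and 0.07929 for GATA6, of opposite sign to those of all 16.

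With detected genes as a covariate the log2 fold change was 0.5638 for HAND1, -0.4281 for POU5F1, 0.3707 for COL4A1, 0.07857 for COL4A2, 0.4017 for FOXA2, 0.3409 for APOA1, -0.01893 for MRPL46, 0.6305 for BMP2, 0.1981 for BMPR1A and 1.103 for ZNF750, each of opposite sign to the value without it. With library size as a covariate it was 0.003064 for APOA1. The difference in detected genes kept its sign and passed under every other alternative, from -3250 to -2576 when each blastocyst was left out. Its difference between the classes was 120.9 at 10 counts or more (exact permutation p = 0.895). PC1 and the library measures kept their direction and side of the threshold in all alternatives run. Low counts limit genes near 1 count, where detection varies with depth.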

Other observations

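TLR7, an endosomal receptor for RNA, did not pass the filter with all 16 blastocysts and so has no test there. edgeR called it with no filter, without SCD 13 and without WSD 9. In the fits without SCD 13 and without WSD 9 it passed the filter only through its SCD values. No conclusion is drawn from these calls. SCD blastocysts had 0, 6.69 and 13.9 CPM (lowest, median, highest) and no WSD blastocyst exceeded 0.357 CPM. SCD 13 was the SCD blastocyst at 0. Y-linked transcripts were above 10 CPM in 2 of 6 SCD and 6 of 9 WSD fragmented blastocysts. SCD 13, SCD 14 and SCD 15, which alone had MTARC2 at 340 CPM or more, were also the SCD blastocysts with the lowest summed primitive endoderm markers.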
